A study of Homo sapiens with 6 samples.

Results

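The cytosolic ribosomal protein genes were examined in RL95-2, an established line of human endometrial carcinoma cells, kept with or without adipocyte-conditioned medium (ADP-CM). Members were taken from the gene symbols alone: RPL or RPS followed by digits and optionally A, X or L, together with RPLP0, RPLP1, RPLP2 and RPSA. Pseudogene symbols and the kinase genes whose names begin with RPS6K were left out. This rule found 82 of the 23228 genes in the count tables, of which 43 encode proteins of the large subunit, 31 proteins of the small subunit and 3 proteins of the acidic stalk, while 5 carry the suffix L that marks paralogs. All of these symbols name genes of the family.

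The 3 control libraries came from RL95-2 cells incubated in a 1:1 mix of RPMI and DMEM without serum. The 3 ADP-CM libraries came from the same line with the DMEM part replaced by medium in which mature human adipocytes had been cultured. Exposure lasted 24 h, and all cells had been grown in RPMI with 10% FBS beforehand. No gene was edited and no drug was given in these libraries. All 6 libraries are of 1 cell line. Neither the labels nor the methods say whether the replicates were separate cultures or whether 1 or several batches of ADP-CM were used. The p-values therefore refer to these libraries only. In edgeR the spread is estimated partly from all tested genes, so a gene's own libraries can differ more than its p-value or standard error implies.

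Ribosomal proteins are built into the small and large ribosomal subunits together with the ribosomal RNAs, in the nucleolus and then in the cytoplasm. The small subunit reads the messenger RNA, the large subunit forms the peptide bond, and the stalk recruits the GTPases that drive elongation. Their mRNAs are among the most abundant of a growing cell. Most begin with a C followed by an unbroken stretch of pyrimidines, the 5′ terminal oligopyrimidine (TOP) motif, through which mTOR signalling controls their translation.

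The following windows show that start for members to which the results return. Each holds 20 bases before the transcription start and 10 bases from it onward, read 5′ to 3′ from the RefSeq promoter table on GRCh38 and placed on GRCh37 (hg19) by an exact match. Capitals mark runs of 4 or more C or T that reach the base before the start or lie past it.
RPL36A, chrX:100645979-100646008, plus strand: ttccgtttgcctcgcggTTTCTTTCTTTCC
RPL39, chrX:118925584-118925613, minus strand: gctcgttcttccgccagCTTCCCTCCTCTT
RPL13A, chr19:49990845-49990874, plus strand: ccctgcgacaaaaCCTCCTCCTTTTCCaag
RPL27, chr17:41150416-41150445, plus strand: cctcaccggggtgaaaggttagcggaagtg
RPS14, chr5:149829293-149829322, minus strand: tcgctccgccccctcccaCTCTCTCTTTCC
RPS6, chr9:19380225-19380254, minus strand: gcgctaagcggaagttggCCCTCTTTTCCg
RPLP1, chr15:69745137-69745166, plus strand: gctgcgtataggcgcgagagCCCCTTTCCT
RPLP2, chr11:809947-809976, plus strand: gcctcttgcgtcggcgCCTTCCTTTTCCTC
RPS4X, chrX:71497089-71497118, minus strand: cgcgcgcagtctccagCCCCaaTTTCTacg
RPS27L, chr15:63449667-63449696, minus strand: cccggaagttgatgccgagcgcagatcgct
A run spans or adjoins the start in 8 of these 10 windows, and none is marked in RPL27 or RPS27L.

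Over the table, 64 of the 82 members had an entry. A run of 6 or more C or T lay between 5 bases before and 10 bases after a listed start in 52 of these 64 members (81.2%), against 17% of 27305 genes in the table. The first transcribed base was C in 76.6% of members and 18% of all genes. In the whole 300 bases of an entry, on either strand, the ETS core CCGGAA was found in 57.8% of members and 20.1% of all genes, and the TATA letters TATAAA in 9.38% and 14%. These are matches of letters, not measured sites.

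Between 16262614 and 17096135 reads per library lay on genes in control and between 18103609 and 18363033 in ADP-CM, without overlap. Members took 460766 to 566717 of them. Reads without a unique alignment made up 20.5 to 20.6% of all counted reads in control and 20.7 to 20.8% in ADP-CM. Replicates of a group differed somewhat more than by sampling noise alone. The chi-square per degree of freedom ran from 1.23 (control 1 and 2) to 2.05 (ADP-CM 2 and 3). This spread was small, with a common biological coefficient of variation of 1.67% in edgeR. Epithelial marker genes were expressed in every library, with 8 of 8 tested. Summed, they stood at 4144 to 4217 CPM (reads relative to the TMM-scaled library size) in control and 3490 to 3539 in ADP-CM. Most of that was KRT8 and KRT18. By edgeR at an adjusted p under 0.01, 5 of the 8 fell, against 13% of all tested genes, KRT19 the most (log2 fold change -0.85). PAX8 rose, as did MUC1 from a mean of 0.953 CPM, where 13.5% of all tested genes rose. Of 9 adipocyte markers 4 had no more than 3 reads in any library, ADIPOQ and LEP were at 0 throughout, and the summed level was 15.3 to 16.6 CPM in control and 14.1 to 16.2 in ADP-CM. Summed levels were 61.5 to 68.4 and 78.3 to 79.1 CPM for 6 stromal markers, most of it COL1A1, and 6.96 to 8.17 and 9.82 to 11.9 for 6 leukocyte markers, most of it CD68, with TYROBP at 0. For 4 endothelial markers, most of it CDH5 and with KDR at 0, they were 60.7 to 66.4 and 54.5 to 61.6 CPM. The part of these shifts in the results below was not tested.

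Ribosomal protein mRNAs were higher after ADP-CM in both subunits, by small amounts. Of the 77 members with enough reads to be tested, 53 rose (68.8%) and 1, RPLP1, fell (1.3%) by edgeR's quasi-likelihood test at a Benjamini-Hochberg adjusted p under 0.01. Over all 12663 tested genes, 13.5% rose and 13% fell. The median member changed by 0.12 on the log2 scale, a rise of 8.69%, against a median of -0.0023 for all tested genes. The interquartile range of the members ran from 0.067 to 0.17, and that of all tested genes from -0.11 to 0.11.

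No member passed a fold change of 1.5 together with the adjusted p, the limits used in the study, with edgeR or with DESeq2, whereas 2.27% of all tested genes did so with edgeR. At an unadjusted p under 0.05, edgeR put 62 members higher and 2 lower, against 22.6% and 22.4% of all tested genes. The fold changes ran from -0.25 (RPS28) to 0.46 (RPL36A) on the log2 scale. DESeq2 called 42 members raised and 0 lowered, against 8.88% and 8.02% of all tested genes.

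**Figure D1:**
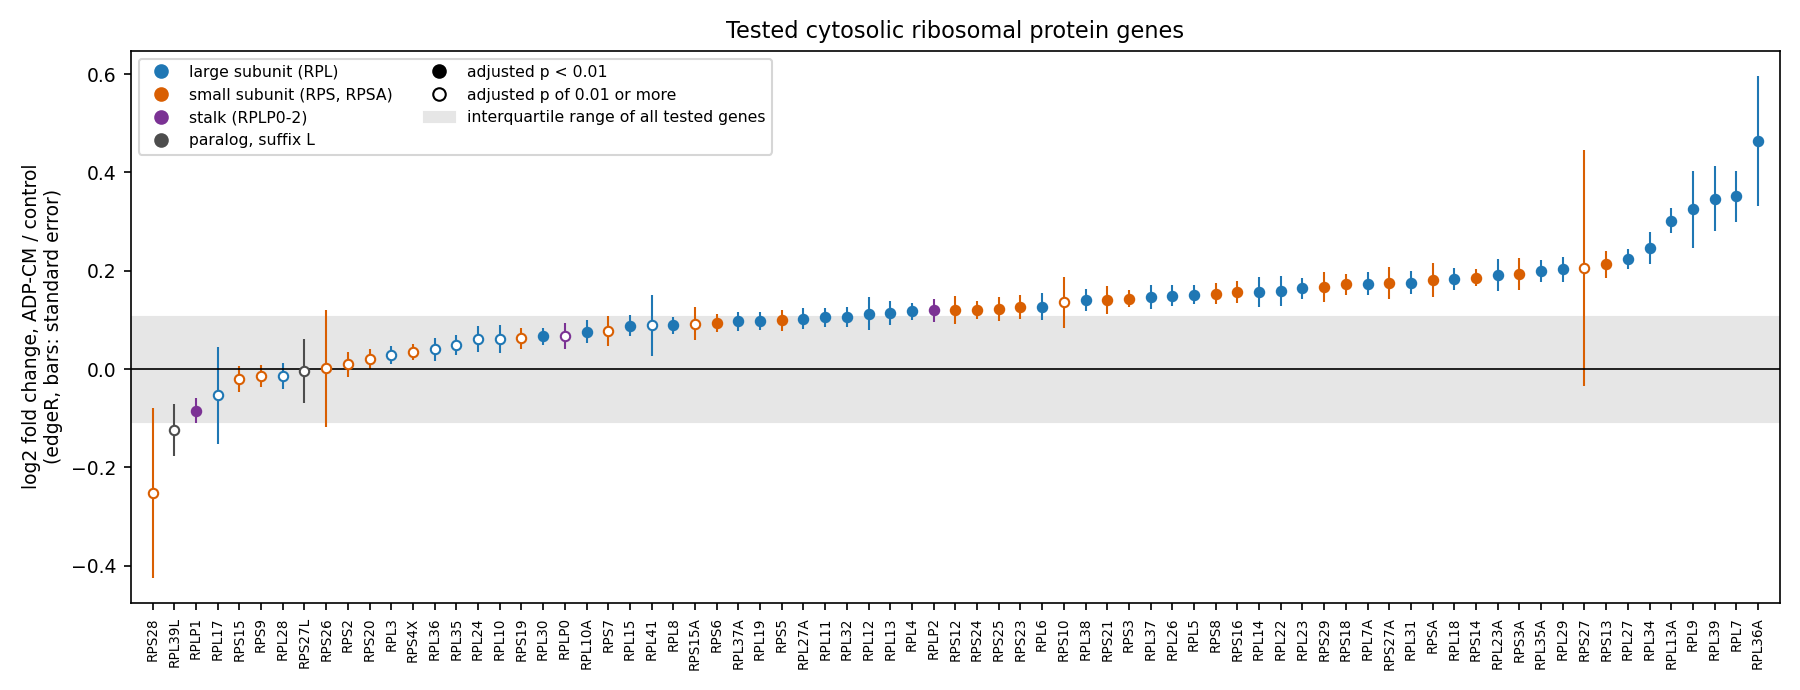
Log2 fold change (ADP-CM over control, edgeR, bars are standard errors) for 75 of the 77 tested ribosomal protein genes in rising order, coloured by subunit, with filled points at an adjusted p under 0.01. Points lie above 0 for 67 of these genes and below 0 for 8, and the grey band is the interquartile range of all tested genes.

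The libraries themselves separated along this family. With each member set relative to its own control mean, the median member stood at -0.010, -0.014 and 0.031 on the log2 scale in control replicates 1, 2 and 3, and at 0.13, 0.12 and 0.12 in the ADP-CM replicates. Control replicate 3 was the highest control, with 58 of 77 members above their control mean, and the ADP-CM replicates had 68, 70 and 72 above it. All 3 ADP-CM libraries lay above all 3 control libraries for 54 members (70.1%), against 22.7% of all tested genes. They lay below all controls for 2 members (2.6%), RPS28 and RPL39L, against 22.8% of all tested genes.

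Summed over all 82 genes, the members took 2.83%, 2.81% and 2.88% of gene reads in control replicates 1 to 3 and 3.08%, 3.06% and 3.09% in ADP-CM. The 2 groups did not overlap. The share was 2.84% ± 0.0333 (SD, n = 3) in control and 3.07% ± 0.0161 (SD, n = 3) in ADP-CM, a difference of 0.232 percentage points and a ratio of 1.08. A two-sided exact permutation test gave p = 0.1, the smallest value that 3 libraries against 3 allow. The 95% Wilson intervals of the single shares were 0.0158 to 0.0161 points wide and cover counting error only. A share of reads does not separate more mRNA per cell from less RNA of other genes.

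**Figure D2:**
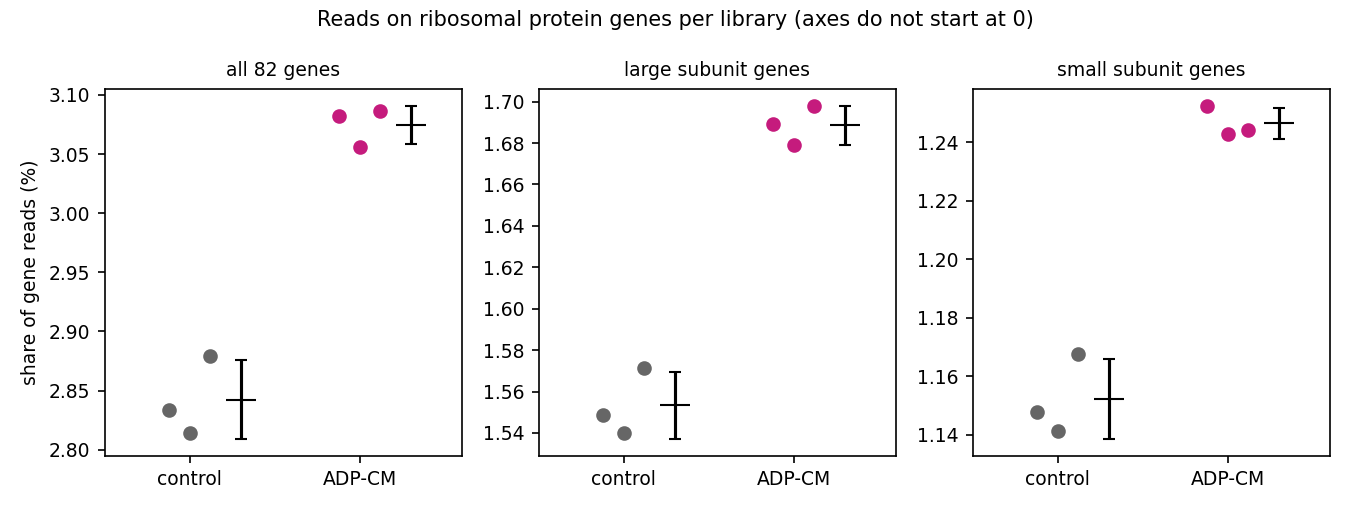
Share of gene reads (percent) on all 82 ribosomal protein genes, on large subunit genes and on small subunit genes, with 1 point per library and the mean and SD (n = 3) beside them; the axes do not start at 0. Every ADP-CM point lies above every control point in all 3 panels.

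Large subunit genes took 1.55% ± 0.0162 of gene reads in control and 1.69% ± 0.00946 in ADP-CM. Of 42 tested, 34 rose and none fell at the adjusted p limit of edgeR, against 13.5% and 13% of all tested genes. At an unadjusted p under 0.05, 37 were higher and 0 lower, against 22.6% and 22.4%. Their median log2 fold change was 0.13. The 8 largest rises of the whole family all belonged to this subunit.

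RPL36A showed the largest fitted rise, from few reads. Its level was 4.07, 4.97 and 4.85 CPM in the control libraries and 6.85, 6.71 and 5.65 CPM in ADP-CM, without overlap. The log2 fold change was 0.46 ± 0.13 (SE), with an adjusted p of 0.00389 by edgeR. That call did not hold without control replicate 1 (adjusted p 0.0384), ADP-CM replicate 1 (0.0277) or ADP-CM replicate 2 (0.0193), nor with DESeq2 (0.0361). The gene lies at chrX:100645812-100651143 and shares 94.3% of its coding bases with the readthrough gene RPL36A-HNRNPH2, and reads on both can be left out as ambiguous.

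RPL39 and RPL9 also rose from low levels. RPL39, a short protein near the exit tunnel, had 19.5, 23.3 and 26.0 CPM in control and 27.5, 30.8 and 29.4 CPM in ADP-CM. Its lowest treated library stood only a little above its highest control, and the log2 fold change was 0.35 ± 0.066 (adjusted p 2.2e-05, edgeR). RPL9, from the base of the stalk, went from 13.1, 13.0 and 15.1 CPM to 16.7, 17.1 and 17.9 CPM. Its groups did not overlap, with a log2 fold change of 0.32 ± 0.078 (adjusted p 0.000574 by edgeR and 0.0116 by DESeq2).

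RPL7, another large subunit protein, had 34.1, 35.1 and 37.2 CPM in control and 45.7, 42.4 and 47.6 CPM in ADP-CM. The groups were apart, with a log2 fold change of 0.35 ± 0.051 (adjusted p 7.56e-08, edgeR).

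RPL13A, RPL34 and RPL27 rose on many more reads. RPL13A, a protein also known from a complex that silences inflammatory mRNAs, had 194.5, 196.2 and 206.0 CPM in control and 244.6, 246.9 and 244.3 CPM in ADP-CM. The 3 treated libraries agreed closely, and the log2 fold change of 0.30 ± 0.026 had the smallest adjusted p of the family by edgeR, 2.04e-15. RPL34 went from 117.4, 118.7 and 129.6 CPM to 147.8, 144.7 and 141.5 CPM, a log2 fold change of 0.25 ± 0.032 (adjusted p 3.79e-09, edgeR). RPL27 went from 549.2, 561.6 and 586.9 CPM to 665.1, 654.6 and 662.4 CPM, a log2 fold change of 0.22 ± 0.020 (adjusted p 2.91e-14, edgeR). Neither gene's groups overlapped. RPL13A lies at chr19:49990767-49996314, RPL34 at chr4:109541725-109551568 and RPL27 at chr17:41150290-41154976.

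RPL5 and RPL11 bind MDM2 when ribosome assembly fails and so link the ribosome to p53. RPL5 was at 538.1, 542.9 and 563.5 CPM in control and 616.2, 603.4 and 607.3 CPM in ADP-CM, a rise of 11.1% (log2 fold change 0.15 ± 0.020, adjusted p 6.11e-09, edgeR). RPL11 was at 836.5, 807.1 and 795.5 CPM in control and 873.6, 889.3 and 861.0 CPM in ADP-CM, a rise of 7.59% (0.11 ± 0.019, adjusted p 7.31e-06). The treated libraries were all above the controls for both.

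Among the members with the most reads, RPL4, RPL8 and RPL30 rose by less than 10%. RPL4, which lines the exit tunnel, had 1145, 1147 and 1156 CPM in control and 1245, 1244 and 1252 CPM in ADP-CM, a rise of 8.50% (log2 fold change 0.12 ± 0.017, adjusted p 5.33e-08, edgeR). RPL8, near the catalytic centre, rose by 6.37% from 1333 ± 19.6 to 1418 ± 13.3 CPM (adjusted p 1.96e-05). RPL30 rose by 4.75% from 1031 ± 6.51 to 1080.2 ± 6.54 CPM (adjusted p 0.00149), and its adjusted p was 0.0106 without control replicate 3. In all 3 genes the groups stood apart, although the changes were small.

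The large subunit genes that did not pass the test were RPL3, RPL10, RPL17, RPL24, RPL28, RPL35, RPL36 and RPL41, with log2 fold changes between -0.053 and 0.089. RPL17 was the lowest of them by reads and in fold change. It had 12.1, 9.12 and 10.6 CPM in control and 9.72, 11.2 and 9.68 CPM in ADP-CM, with full overlap (-0.053 ± 0.098, adjusted p 0.709), and all of its coding bases are shared with the readthrough gene RPL17-C18orf32.

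Small subunit genes took 1.15% ± 0.0137 of gene reads in control and 1.25% ± 0.00523 in ADP-CM. Of 30 tested, 18 rose and 0 fell by edgeR, against 13.5% and 13% of all tested genes. At an unadjusted p under 0.05, 23 were higher and 0 lower, against 22.6% and 22.4%. The median log2 fold change was 0.12, beside 0.13 for the large subunit, and the difference between the subunits was not tested. The largest called rise was that of RPS13, from 171.8 ± 3.13 to 199.1 ± 1.24 CPM (0.21 ± 0.027, adjusted p 1.33e-09). RPS14, whose start is printed above, went from 760.2 ± 6.37 to 865.0 ± 5.17 CPM (0.19 ± 0.018, adjusted p 3.36e-13). RPS13 and RPS14 were picked after their values were seen.

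RPS6, the substrate of S6 kinase downstream of mTOR, had 911.3, 930.9 and 929.0 CPM in control and 994.5, 995.9 and 966.3 CPM in ADP-CM. The groups were apart, with a rise of 6.68% (log2 fold change 0.093 ± 0.018, adjusted p 2.61e-05, edgeR). RPS3, at the mRNA entry channel, had 941.5, 931.2 and 927.5 CPM in control and 1044, 1025 and 1023 CPM in ADP-CM, a rise of 10.4% (0.14 ± 0.018, adjusted p 7.8e-10). Its controls differed by far less than the distance between the groups.

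RPSA, also known as the laminin receptor, and RPS27A, made as a fusion with ubiquitin, rose with wider control spread. RPSA had 120.1, 128.4 and 144.8 CPM in control and 149.4, 147.7 and 149.5 CPM in ADP-CM (0.18 ± 0.035, adjusted p 2.6e-05 by edgeR and 0.0687 by DESeq2). With the reads of rows named as its pseudogenes added, of which RPSAP58 alone held 2828 to 3407 reads per library against 1949 to 2750 for RPSA, the log2 fold change was 0.10 (adjusted p 0.000802, edgeR). RPS27A had 177.2, 170.3 and 202.0 CPM in control and 210.3, 208.4 and 201.9 CPM in ADP-CM (0.17 ± 0.032, adjusted p 1.19e-05 by edgeR and 0.0801 by DESeq2). Control replicate 3 was the highest control of both and reached the ADP-CM range for RPS27A.

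RPS4X, the X-linked form of RPS4, did not pass the test. It had 1457, 1443 and 1448 CPM in control and 1491, 1508 and 1455 CPM in ADP-CM, so that 1 treated library fell within the control range (0.035 ± 0.017, adjusted p 0.0997, edgeR). The other small subunit genes without a call were RPS2, RPS7, RPS9, RPS10, RPS15, RPS15A, RPS19, RPS20, RPS26, RPS27 and RPS28. RPS28 and RPS27 had the fewest reads of all tested members. RPS28 had 3.14, 3.14 and 3.74 CPM in control and 2.65, 3.00 and 2.77 CPM in ADP-CM, lower in all 3 treated libraries but at an adjusted p of 0.26 (-0.25 ± 0.17). RPS27 had 1.73, 1.30 and 1.34 CPM in control and 1.44, 1.80 and 1.79 CPM in ADP-CM, and RPS26 stood at 6.41 ± 0.386 and 6.42 ± 0.292 CPM. Neither gene's groups were apart, with log2 fold changes of 0.21 ± 0.24 and 0.0014 ± 0.12.

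Of the 3 stalk genes, 1 rose, 1 fell and 1 did not pass the test. RPLP2 had 479.2, 465.5 and 510.2 CPM in control and 536.5, 508.9 and 535.3 CPM in ADP-CM, a log2 fold change of 0.12 ± 0.023 (adjusted p 2.49e-05 by edgeR and 0.0364 by DESeq2). RPLP1, its partner in the P1-P2 dimer, was at 514.1, 491.4 and 475.9 CPM in control and 461.1, 440.2 and 495.2 CPM in ADP-CM. For both genes 1 treated library lay within the control range.

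RPLP1 had a log2 fold change of -0.085 ± 0.025 and an adjusted p of 0.00546 by edgeR. The call did not hold without control replicate 1 (adjusted p 0.109), control replicate 2 (0.0164), ADP-CM replicate 1 (0.0395) or ADP-CM replicate 2 (0.135), nor with DESeq2 (0.308), and the log2 fold change was -0.13 (adjusted p 1.2e-07, edgeR) without ADP-CM replicate 3. RPLP0, which anchors the dimers, had 314.7, 314.5 and 349.3 CPM in control and 339.5, 334.8 and 351.1 CPM in ADP-CM (0.067 ± 0.026, adjusted p 0.0357), and passed at 0.000262 without control replicate 3, its highest control. The stalk genes together took 0.130% ± 0.00338 of gene reads in control and 0.133% ± 0.00500 in ADP-CM (two-sided exact permutation p = 0.4).

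**Figure D3:**
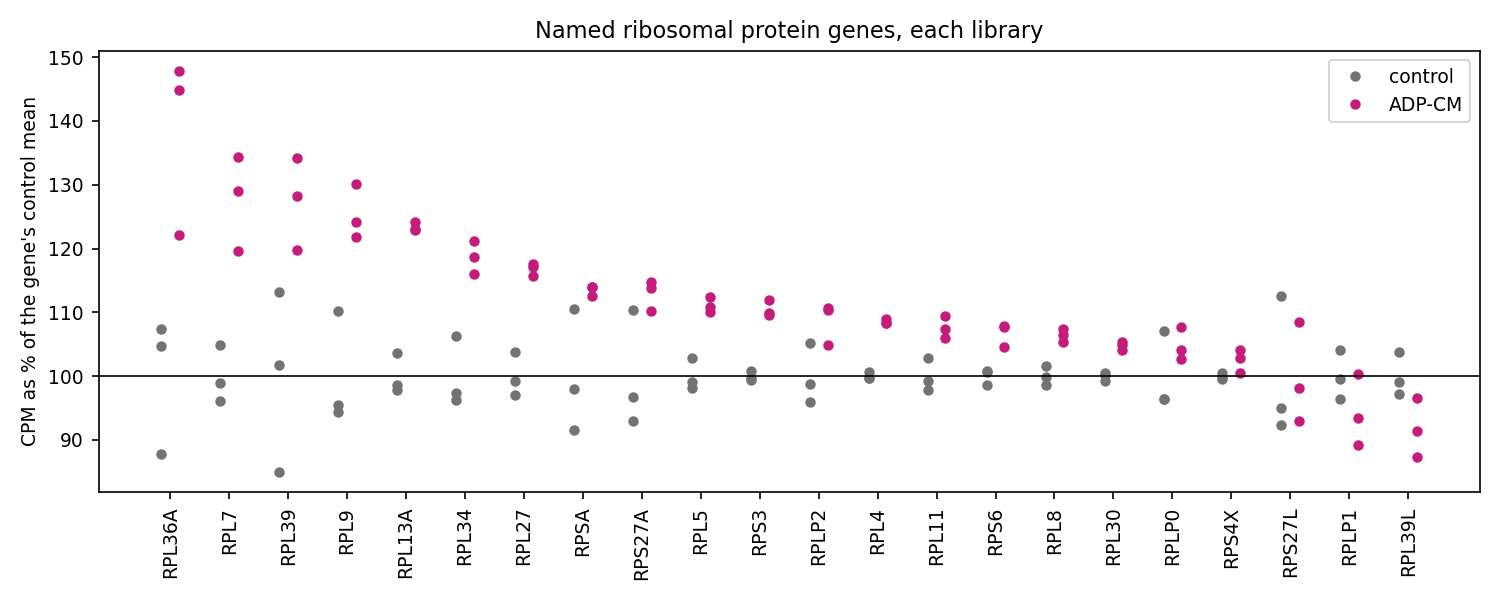
CPM of each library as a percentage of the gene's control mean, for 22 named members, with control libraries in grey and ADP-CM libraries in magenta. The magenta points lie above all grey ones for RPL36A to RPSA at the left and for RPL5, RPS3, RPL4, RPL11, RPS6, RPL8 and RPL30. Magenta and grey points mix for RPS27A, RPLP2, RPLP0, RPS4X, RPS27L and RPLP1, and for RPL39L the magenta points lie below.

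Of the paralogs with suffix L, RPL39L and RPS27L were expressed, and neither passed the test in either direction. RPL39L, a form of RPL39 best known from testis, had 39.4, 37.6 and 36.9 CPM in control and 36.7, 33.2 and 34.7 CPM in ADP-CM. Its 3 treated libraries were below all controls, with a log2 fold change of -0.12 ± 0.052 (adjusted p 0.0571, edgeR), beside the rise of 0.35 given above for RPL39. RPS27L, a p53 target gene related to RPS27, had 24.7, 25.3 and 30.1 CPM in control and 26.2, 29.0 and 24.8 CPM in ADP-CM (-0.0041 ± 0.065, adjusted p 0.97). The difference in response between a gene and its paralog was not tested. No 50-base stretch of the RPL39L or RPS27L coding sequence recurs elsewhere in the genome. For RPL39 and RPS27 the share of such stretches with an exact copy elsewhere was 100%.

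RPL10L, RPL21 and RPL3L were among the 5 members with too few reads to be tested. RPL10L had 0 reads in all 6 libraries, and RPL21 and RPL3L had 1 read in 1 ADP-CM library. RPL10L and RPL3L are paralogs best known from testis and striated muscle. RPL21 is an ordinary subunit, and counts near 0 for it do not show that it was silent: every 50-base window of its coding sequence has an exact copy elsewhere in the genome.

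Such copies touch most of the family, since reads that align to several places were not counted. The share of 50-base coding windows with an exact copy elsewhere on GRCh37 was 100% for RPL36A, RPL39, RPL41, RPS10, RPS26, RPS27 and RPS28, 99.7% for RPL7 and 90.5% for RPL9. It was 74.5% for RPL13A, 34.4% for RPL34 and 5.01% for RPL27. Across the 77 tested members, the level in CPM per kilobase of coding sequence fell with this share (Spearman's rho -0.73), and the log2 fold change was only weakly related to it (0.19). These correlations describe genes of the same libraries, which are not independent.

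Among the 21 tested members with under 20% copied windows, 16 rose and 0 fell by edgeR, against 13.5% and 13% of all tested genes. At an unadjusted p under 0.05, 17 were higher and 1 lower, against 22.6% and 22.4%. Their median log2 fold change was 0.11. In the 36 members between 20% and 80%, 25 rose and 1 fell, with a median of 0.12. In the 20 members above 80%, 12 rose and none fell, with a median of 0.17. Rises were counted in each of these sets, and the 5 largest all lay in genes with 74.5% copied windows or more. The part of copies in the rises was not tested. Fold changes were only loosely related to coding GC (rho -0.27) and not visibly to coding length (0.032), each over 77 genes.

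**Figure D4:**
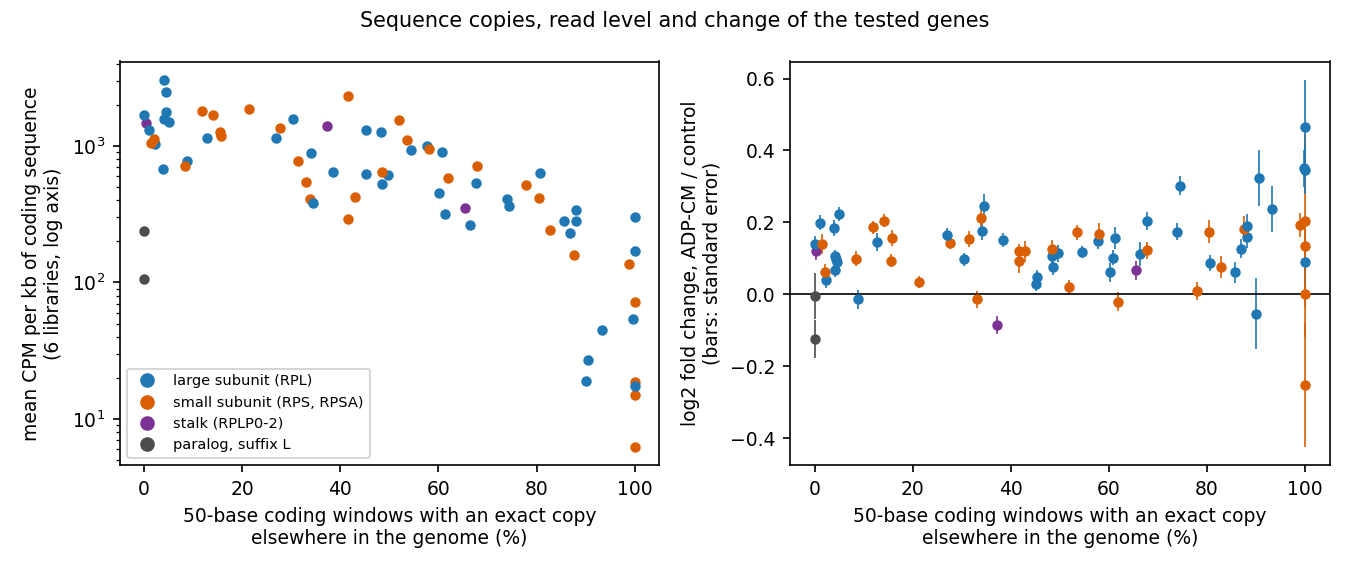
Share of 50-base coding windows with an exact copy elsewhere in the genome (percent) for the 77 tested genes, against the level per kilobase of coding sequence on a log axis (left) and against the log2 fold change with its standard error (right). Levels fall toward the right of the left panel, and the widest error bars of the right panel lie at 100%.

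Rises were counted among members with and without a pyrimidine run at a start listed in the promoter table. Whether the listed starts are those used in these cells was not tested. Of 51 tested members with a run in the promoter table, 36 rose and 1 fell, with a median log2 fold change of 0.12. Of 11 without one, RPL27 and RPL9 among them, 6 rose and 0 fell (7 higher and 0 lower at an unadjusted p under 0.05), with a median of 0.088. RPLP1 carries a run of the same kind as RPLP2, in the windows printed above. The difference between the 2 sets was not tested.

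Ribosomal protein genes and paralogs outside the symbol rule were read beside the members. Of 9 listed, 6 were tested, 4 rose and 0 fell, against 13.5% and 13% of all tested genes. At an unadjusted p under 0.05, 4 were higher and 1 lower, against 22.6% and 22.4%. Their median was 0.10. FAU, which encodes a small subunit protein fused to a ubiquitin-like one, rose from 171.3 ± 5.48 to 186.0 ± 3.39 CPM (0.12 ± 0.028, adjusted p 0.00046, edgeR). That call was lost without control replicate 1 (adjusted p 0.0129). The paralog RPL22L1 rose by 0.14 ± 0.027 (adjusted p 1.5e-05) and RPL7L1 by 0.16 ± 0.045 (adjusted p 0.00276). For RPL7L1 the adjusted p was 0.014 without control replicate 1, 0.0398 without control replicate 3, 0.0106 without ADP-CM replicate 1, 0.0126 without ADP-CM replicate 3 and 0.0266 with DESeq2.

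Other mRNAs of translation and ribosome production were read in the same way. Of 15 tested mRNAs with a TOP motif that encode translation factors and other proteins, 5 rose and 1 fell. The shares over all tested genes were 13.5% and 13%, and the median of the 15 was 0.052. GNB2L1, the ribosome-bound protein RACK1, rose by 0.15 ± 0.017 (adjusted p 2.27e-10, edgeR), the elongation factor genes EEF1B2 by 0.16 ± 0.028 (7.35e-06) and EEF1G by 0.11 ± 0.022 (2.76e-05). PABPC1, the poly(A)-binding protein, fell from 2249 ± 34.1 to 2114 ± 27.05 CPM (-0.089 ± 0.016, adjusted p 7.36e-06). PABPC1 was the only call of this list in the other direction.

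Of 10 listed snoRNA host genes, only 6 were found by name in the count tables. All 6 were tested and rose, against 13.5% of all tested genes. Their median log2 fold change was 0.25, above that of the members. GAS5 rose by 0.24 ± 0.028 (adjusted p 5.66e-11, edgeR), SNHG1 by 0.26 ± 0.030 (1.05e-10), SNHG5 by 0.29 ± 0.042 (3.68e-08) and SNHG12 by 0.46 ± 0.061 (5.82e-09). These transcripts, several of which also begin with a pyrimidine run, release small nucleolar RNAs that guide modification of ribosomal RNA.

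Of 42 genes of ribosome assembly and ribosomal RNA synthesis, 21 rose and 0 fell, against 13.5% and 13% of all tested genes. At an unadjusted p under 0.05, 30 were higher and 2 lower, against 22.6% and 22.4%. Their median was 0.10. MYC, a transcriptional activator of ribosome biogenesis, went from 258.2 ± 0.502 to 322.0 ± 6.11 CPM (0.32 ± 0.023, adjusted p 3.54e-18, edgeR). TSR1, an assembly factor of the small subunit, rose by 0.23 ± 0.025 (1.03e-11), the RNA polymerase I subunit gene POLR1B by 0.20 ± 0.031 (4.19e-07) and the nucleolar gene NOLC1 by 0.14 ± 0.019 (1.64e-08).

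Regulators around mTOR and S6 kinase moved both ways, with 5 of 17 raised, 3 lowered and a median of 0.0078. Over all tested genes, 13.5% rose and 13% fell. EIF4EBP1, a repressor of cap-dependent translation, rose by 0.25 ± 0.034 (adjusted p 1.91e-08, edgeR), and its relative EIF4EBP2 changed by -0.23 ± 0.027 (3.04e-10). SESN2, a leucine sensor that restrains mTOR, rose by 0.32 ± 0.056 (3.33e-06), and EEF2K, the kinase of elongation factor EEF2, by 0.21 ± 0.044 (8.45e-05). The remaining calls of this list were RPS6KB1 and LARP1, raised, and AKT1S1 and DDIT4, lowered. The mRNA levels of these genes do not report the activity of the pathway.

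**Figure D5:**
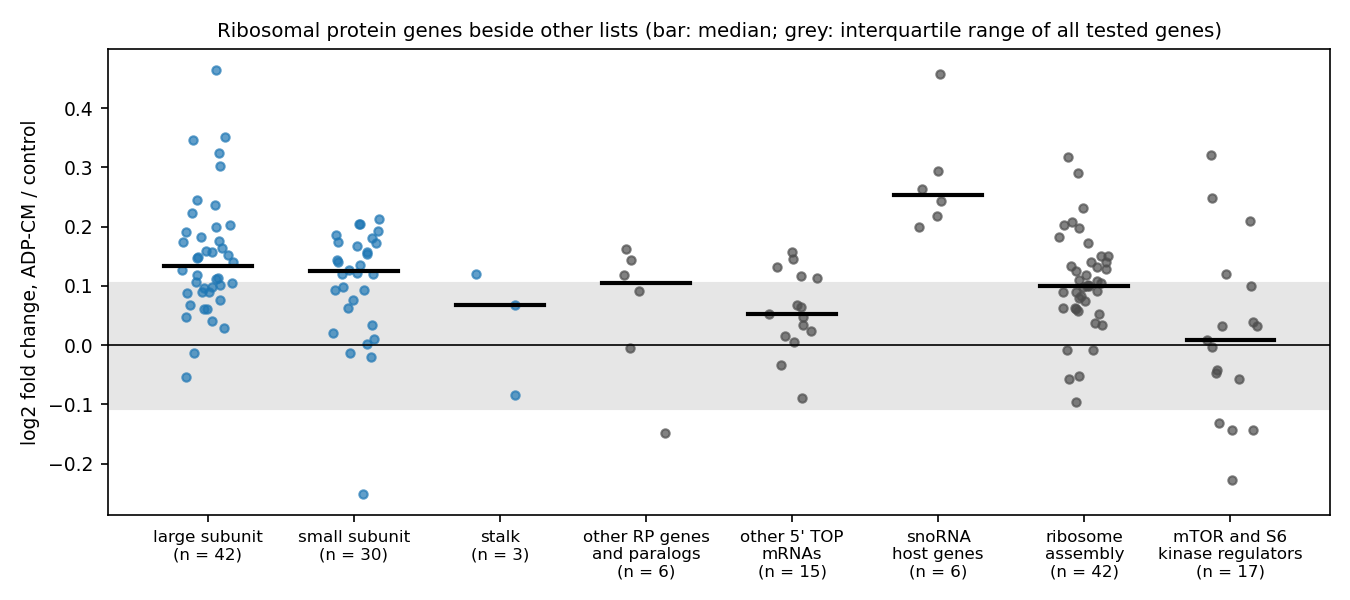
Log2 fold change (ADP-CM over control) of each tested gene in the ribosomal protein subunits (blue) and in 5 other lists (grey points), with the median as a bar and the interquartile range of all tested genes as a grey band. The snoRNA host genes lie highest, at a median of 0.25, and the mTOR and S6 kinase regulators spread around 0.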

How the data were processed

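RNA was isolated with a column kit, and stranded poly(A) libraries were sequenced to single reads of 50 bp. TopHat2 placed them on hg19, HTSeq assigned them to RefSeq genes, and the authors deposited raw counts per gene. HTSeq leaves out reads with several alignments. Per the submitters' processing notes, bcl2fastq and SAMtools were also used. Tool versions and the strand setting of the counting were not given in the sources used here, so overlapping genes are uncertain.

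Counts were compared between the 3 control and the 3 ADP-CM libraries in R 4.3.3 with edgeR 4.0.16 (TMM, filterByExpr, quasi-likelihood test, Benjamini-Hochberg adjustment over 12663 of 23228 genes). CPM values are TMM-normalized, with SD over 3 libraries, and log2 fold changes carry standard errors. These standard errors were derived from the F statistic of the quasi-likelihood test, which shares variance across genes, and not from each gene's SD. Summary lines that name no gene were kept out. Reads without a feature made up 10.2 to 10.3% of counted reads in control and 11.5 to 11.6% in ADP-CM, without overlap. Alternatives were DESeq2 1.42.0, its size factors, plain library sizes, TMM without the members, other filters, a replicate term, leaving out each library, adding pseudogene rows, another denominator for the share, a limit of 0.05 on the adjusted p, and a trend over length, GC and expression (mgcv 1.9.3). The fits were first tested on simulated data. Coding sequences and positions came from GENCODE release 44 on GRCh37.

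The members and lists were chosen with earlier results of these data known. The rule for named genes took the 8 largest called rises and falls, the 5 highest and 5 lowest members by CPM, all members with suffix L or not tested, 10 members set by name, and up to 4 genes of each other list with the smallest p. A few genes within the rule are not reported here.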

Additional observations from a re-analysis of the deposited data

Results flagged for a closer look

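Rows named as pseudogenes of a member were used above only where their reads were added to RPSA. Of 11 tested, 2 stood above the control libraries and passed an adjusted p of 0.01 by edgeR. Over all tested genes, 13.5% rose at that limit and 22.7% stood above every control library. A further row, RPL19P12, also stood above every control library. It had 148.8, 147.1 and 141.6 CPM in control and 152.2, 153.3 and 150.3 CPM in ADP-CM. Its log2 fold change of 0.060 was not called (adjusted p 0.102, edgeR). The other tested rows were not called either, with log2 fold changes from -0.33 (RPL13AP20) to 0.13 (RPL13P5). RPL23P8 had 1353, 1564 and 1594 reads in control and 1932, 2012 and 2003 in ADP-CM, a log2 fold change of 0.27 (adjusted p 3.4e-09), while RPL23 itself rose by 0.16. RPL32P3 had 34, 37 and 31 reads in control and 70, 58 and 79 in ADP-CM, a log2 fold change of 0.89 (adjusted p 7.27e-05), beside 0.11 for RPL32. The table held 27 such rows, 17 of them with reads, with 7111 to 8842 reads per library in all. Whether these reads came from the pseudogenes or from the parent genes was not tested.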

How the results depend on the processing

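The count of raised members was 53 with DESeq2's size factors, plain library sizes, TMM without the members, at least 10 counts per library or pseudogene rows added, 54 without a filter, 42 with DESeq2 (0 lowered) and 49 to 56 with each library left out (0 to 1 lowered). Of the 54 calls, 39 were kept under all of these. With the replicate block, 53 rose and 1 fell, with a median log2 fold change of 0.12. Same-numbered libraries deviated together (correlations 0.057, 0.030 and 0.088) too weakly for the numbers to be taken as pairs, although each correlated best with its own number, a hint from the data that no label settles. The median lay between 0.11 and 0.13 with each library left out and was 0.13 with the trend removed. Restricted to the members with under 20% copied windows, chosen after seeing the data, 16 rose and 0 fell. Taking the 1% highest other genes out of the total gave shares of 3.54% in control and 3.82% in ADP-CM. The difference was then 0.274 points, and the ratio was 1.077, beside 1.082 with all genes in the total. With each library left out, log2 fold changes of 6 uncalled members crossed 0 (RPL17, RPL28, RPS2, RPS15, RPS26 and RPS27L), running from -0.048 to 0.038 for RPS26, from -0.15 to 0.048 for RPL17 and from -0.070 to 0.092 for RPS27L. The cause of these shifts was not tested. RPS27, RPS28, RPL36A and RPS26 had 22 to 124 reads per library and 100% copied windows, and the largest standard errors of the tested members.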
